A study of Mus musculus with 24 samples.

Results

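The aminoacyl-tRNA synthetases examined here are 36 mouse genes, 20 for cytosolic and 16 for mitochondrial enzymes, out of 36528 gene rows in each library. The genes were taken by name as an enzyme family, after results of these same libraries for diphtheria toxin (DT) against saline were known. Counts and adjusted p-values for DT against saline therefore describe these libraries and lend no support to the choice of genes. All 36 genes passed the filter on low counts, among 17468 genes tested, and the lowest count of any of them in a library was 65. The libraries hold polyadenylated RNA of cells from tumours of the small intestine with the genotype recorded as AKVPL, which DT and saline groups share. DT served to deplete cells that express Lgr5, a receptor marking intestinal stem cells. The groups are DT at 24 h and saline at 24 h, DT at 48 h and saline at 48 h, and DT at 96 h and saline at 96 h, with 4 libraries each and 24 in all. EpCAM, found on the surface of epithelial cells, appears in the sample names, and the labels call the sort bulk. The alleles behind the letters AKVPL, the allele that makes Lgr5+ cells sensitive to the toxin, animal ages and the number of animals are not stated in the labels used here. Since no label says that libraries of a group came from separate animals, p-values cover only the spread among libraries, and that spread may be technical.

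Aminoacyl-tRNA synthetases join each amino acid to its tRNAs, the step that sets which amino acid a codon stands for. Cytosolic protein synthesis and mitochondrial protein synthesis use largely separate enzymes, both encoded in the nucleus, and Gars and Kars each serve both compartments from a single gene. Several cytosolic enzymes sit together in a multisynthetase complex, and many cytosolic synthetase genes are known targets of ATF4, the transcription factor of the amino acid and integrated stress responses. Growing and renewing intestinal epithelium has a high demand for protein synthesis.

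Total counts per library, divided by 1e6, were 11.3 to 27.6 for DT and 13.1 to 14.6 for saline at 24 h. They were 10.9 to 27.7 for DT and 15.6 to 27.6 for saline at 48 h, and 11.5 to 24.3 for DT and 14.4 to 24.2 for saline at 96 h. Replicate 3 of DT at 48 h stood apart, at -2.97 on the first principal component (28.4% of the variance), where the remaining DT libraries at 48 h had 18.4 to 30.9 and the saline ones -24.44 to -17.25. Its Lgr5 level of 171 CPM (counts scaled by library size, per 1e6) also lay inside the saline range of that time, 164 to 198 CPM. Most counts, called genes and ratios at 48 h are therefore given with and without it. Results at 48 h given only once, such as the ratio of cytosolic to mitochondrial sums, include this library. At 24 h Lgr5 had 77.0 to 84.9 CPM after DT and 179 to 217 CPM after saline. Besides epithelial markers such as Epcam (mean 1430 CPM) and Cdh1 (1400 CPM), the libraries held fibroblast genes such as Fn1 (8880 CPM) and Col1a1 (2280 CPM). Nkg7, a natural killer and T cell marker, was at 0 in all libraries and Cdx1, an intestinal homeobox gene, in 19 of 24. Cdx2, another intestinal homeobox gene, averaged 16.7 CPM and was above 0 in all libraries. Cd4, listed with Nkg7, averaged 0.4 CPM and was also above 0 in all libraries.

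The promoters of 5 cytosolic genes are shown because they hold the letters TGATGNAA, the form of a C/EBP-ATF response element to which ATF4 can bind. In the RefSeq promoter table of GRCm38.p6, 27 of the 36 genes were matched, 13 cytosolic and 14 mitochondrial. Cars, Hars, Lars, Nars, Rars, Vars, Wars, Hars2 and Pars2 were not matched. Searched on both strands, in 250 bases before the annotated start and 50 bases after it, TGATGNAA was found in 5 of 13 cytosolic and 0 of 14 mitochondrial windows, and in 4.51% of 27025 genes with a window. Each sequence below runs 5′ to 3′ on the strand of its gene, with 120 bases before the start and 20 after it, and capitals mark the match or its reverse complement.
Aars, chr8:111033722-111033861, plus strand: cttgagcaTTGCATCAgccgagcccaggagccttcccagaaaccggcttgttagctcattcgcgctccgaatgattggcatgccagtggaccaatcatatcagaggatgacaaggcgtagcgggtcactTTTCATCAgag
Gars, chr6:55037881-55038020, plus strand: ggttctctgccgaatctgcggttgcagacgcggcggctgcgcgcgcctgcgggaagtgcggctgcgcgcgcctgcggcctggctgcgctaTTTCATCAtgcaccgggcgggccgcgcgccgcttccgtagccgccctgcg
Iars, chr13:49682010-49682149, plus strand: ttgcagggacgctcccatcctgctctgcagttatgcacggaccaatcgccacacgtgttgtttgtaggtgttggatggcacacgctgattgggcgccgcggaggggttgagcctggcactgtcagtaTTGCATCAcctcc
Tars, chr15:11399639-11399778, minus strand: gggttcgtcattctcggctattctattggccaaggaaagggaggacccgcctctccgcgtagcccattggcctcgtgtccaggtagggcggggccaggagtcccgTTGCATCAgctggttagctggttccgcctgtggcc
Yars, chr4:129189783-129189922, plus strand: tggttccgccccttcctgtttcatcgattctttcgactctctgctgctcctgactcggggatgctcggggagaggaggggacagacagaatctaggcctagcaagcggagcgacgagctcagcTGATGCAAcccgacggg

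Counted from the start in the promoter table as base 1, the match began at base -112 and again at base 10 in Aars, at base -30 in Gars and at base 8 in Iars. It began at base -15 in Tars and at base 4 in Yars. In the RefSeq gene coordinates Aars begins at 111027778 and Yars at 129189734, so the windows shown for Aars and Yars lie inside these genes. The letters CACGTG, the E-box bound by Myc and its relatives, were found in 4 of 13 cytosolic windows (Aars, Farsb, Iars and Tars), in 1 of 14 mitochondrial windows (Ears2) and in 8.09% of genes with a window. In these genes no TGATGNAA match shared bases with a CACGTG match. A match is a description of letters and shows no binding.

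Levels were compared between genes as nRPKM, the authors' RPKM after adjustment by a size factor, which takes gene length into account. Over 24 libraries the median of the cytosolic genes was 34.4 nRPKM and that of the mitochondrial genes 8.56 nRPKM. Cytosolic levels ran from 13.4 nRPKM for Cars, the cysteine enzyme, to 82.8 nRPKM for Vars, the valine enzyme. Behind Vars came Gars (73.0 nRPKM), Qars (69.98 nRPKM), Rars (67.4 nRPKM) and Nars (67.0 nRPKM), for glycine, glutamine, arginine and asparagine, whose ranges over libraries overlapped. Of the mitochondrial genes, 13 of 16 lay below Cars, down to 1.83 nRPKM for Pars2, the proline enzyme. The exceptions were Lars2 at 80.4, Iars2 at 25.9 and Yars2 at 15.3 nRPKM, for leucine, isoleucine and tyrosine. Reads assigned to Lars2 are uncertain, as described with its values.

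**Figure D1:**
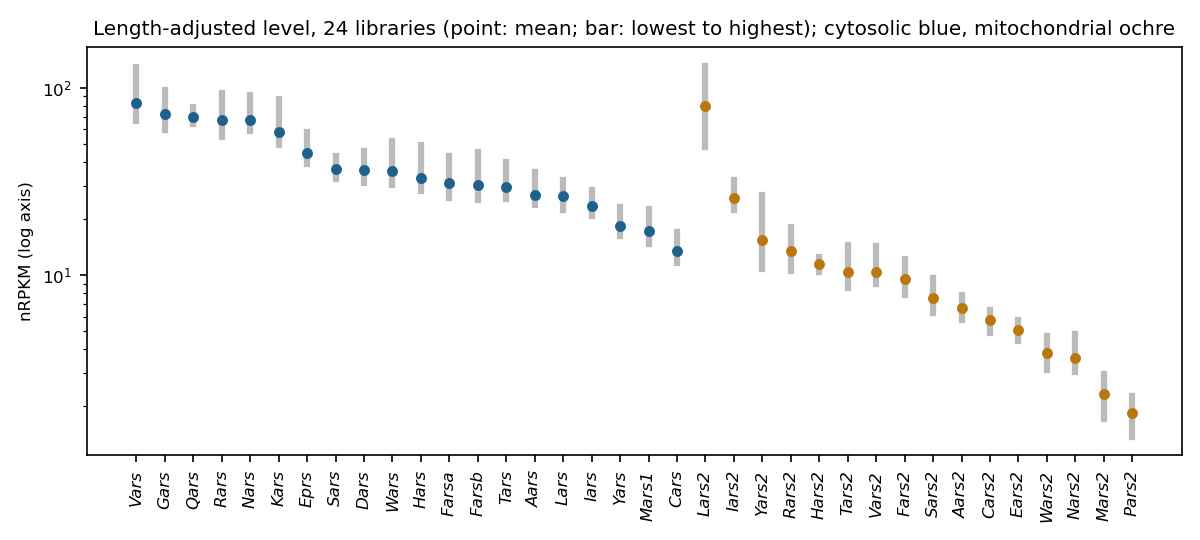
Length-adjusted level (nRPKM, log axis) of each synthetase gene over 24 libraries; points are means and grey bars run from the lowest to the highest library. The cytosolic genes (blue) have a median of 34.4 nRPKM and the mitochondrial genes (ochre) one of 8.56 nRPKM, with Lars2 apart at 80.4 nRPKM.

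At 24 h most cytosolic synthetase genes were higher after DT than after saline. By edgeR's quasi-likelihood test with Benjamini-Hochberg adjustment over all genes and a threshold of 0.05, 16 of 20 rose, beside 19.9% of all tested genes called higher and 18.9% called lower. By edgeR 0 fell, also at an unadjusted p under 0.05, and 0 fell by DESeq2 or limma voom. Among genes in the same range of mean CPM, 6.42 to 395, 23.4% were called higher. Since results of this contrast were known when the family was taken, nothing is read from these counts. The median log2 fold change was 0.38 over the 20 genes and -0.0036 over all genes. Summed over the 20 genes, the level was 3296, 3297, 3770 and 3346 CPM in the DT libraries, against 2737, 2684, 2608 and 2647 CPM in the saline libraries. The DT libraries all lay above the saline ones, and replicate 3 of DT at 24 h was the highest. Without that library 14 of 20 genes were called, with a median of 0.31.

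Vars (Entrez 22321, chromosome 17, 35000907 to 35016329 on GRCm38.p6) had 561, 565, 610 and 607 CPM after DT, against 322, 341, 338 and 322 CPM after saline. The lowest DT library exceeded the highest saline library by more than the spread within either group. Its log2 fold change was 0.82 ± 0.06 (SE, n = 4 per group), a 1.77-fold difference, with an edgeR adjusted p of 9.31e-10. No other cytosolic synthetase gene had as large a change at 24 h.

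The genes with the next smallest p-values charge phenylalanine, arginine, glycine, glutamate with proline, and isoleucine. Farsa, the alpha subunit of the phenylalanine enzyme, had 84.2, 84.3, 90.04 and 75.8 CPM after DT, against 61.0, 60.4, 59.2 and 55.7 CPM after saline. Rars had 216, 189, 217 and 224 CPM after DT, against 161, 151, 145 and 152 CPM after saline. In both genes every DT library lay above every saline library, and the log2 fold changes were 0.50 ± 0.06 for Farsa and 0.48 ± 0.06 for Rars, with edgeR adjusted p of 4.63e-07 and 2.6e-06. The beta subunit gene Farsb also rose, by 0.41 ± 0.07 on the log2 scale.

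Gars, which serves cytosol and mitochondria, had 215, 216, 259 and 230 CPM after DT, against 173, 159, 166 and 163 CPM after saline. Eprs, a single protein with glutamate and proline activities, had 305, 298, 319 and 297 CPM after DT, against 237, 231, 230 and 230 CPM after saline. Iars had 144, 134, 143 and 133 CPM after DT, against 106, 104, 107 and 109 CPM after saline. None of these groups overlapped, and the log2 fold changes were 0.48 ± 0.07 for Gars, 0.40 ± 0.04 for Eprs and 0.38 ± 0.05 for Iars (edgeR adjusted p 4.42e-06, 3.32e-07 and 1.44e-06).

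Kars, the lysine enzyme of both compartments, had 184, 177, 229 and 189 CPM after DT, against 159, 147, 140 and 152 CPM after saline. Its groups did not overlap, and the log2 fold change was 0.38 ± 0.07 (edgeR adjusted p 0.000181). The other cytosolic genes that rose were Tars, Aars, Hars and Mars1, with log2 fold changes of 0.36 to 0.38, and Yars, Lars, Nars and Dars, with 0.16 to 0.22. The calls of Nars and Dars, for asparagine and aspartate, were lost without DT replicate 3, saline replicate 2 or saline replicate 3, and that of Dars also without DT replicate 4 or saline replicate 4. In 14 of 20 cytosolic genes every DT library was above every saline library at 24 h, beside 18.1% of all tested genes.

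**Figure D2:**
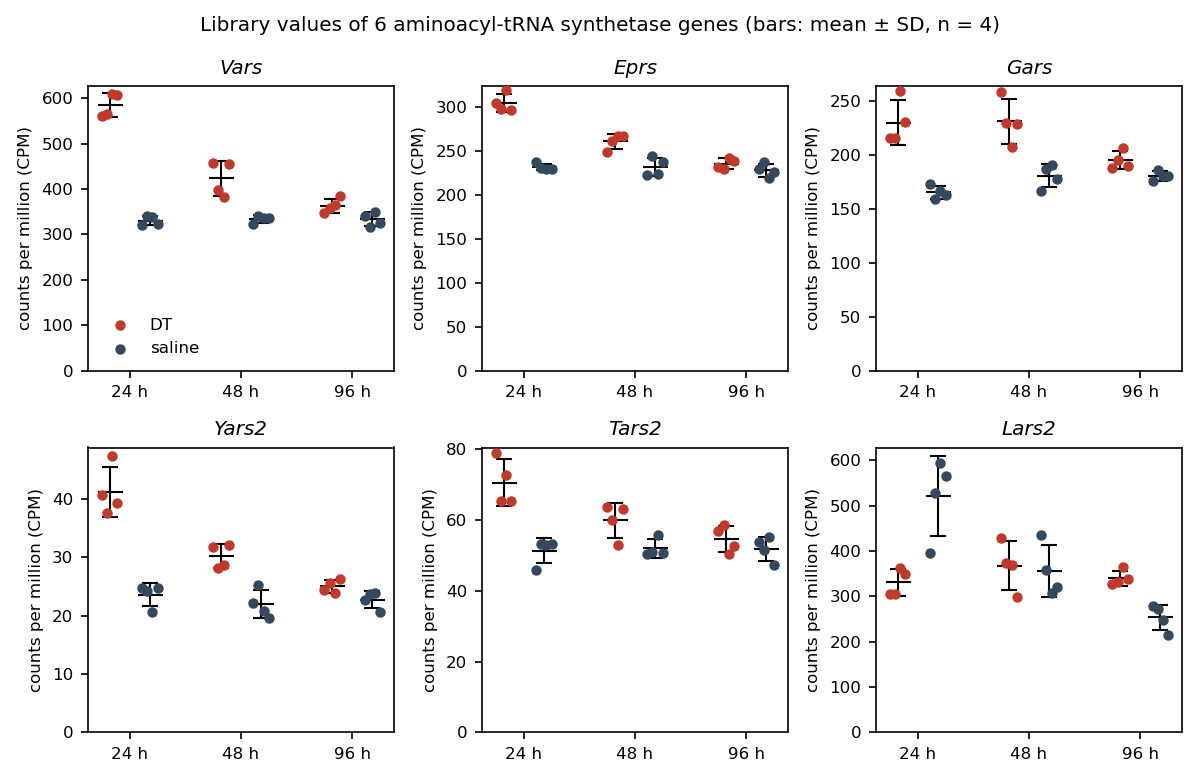
CPM in each library for 6 synthetase genes, DT (red) left of saline (dark) at each time; black marks are the mean ± SD of 4 libraries. Vars spans 561 to 610 CPM after DT and 322 to 341 CPM after saline at 24 h, while Lars2 is lower after DT at 24 h and higher after DT at 96 h.

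Cars, Qars, Sars and Wars were the cytosolic genes not called at 24 h. Qars, the glutamine enzyme, had 201, 204, 225 and 219 CPM after DT, against 234, 221, 216 and 239 CPM after saline, with overlapping groups and a log2 fold change of -0.10 ± 0.06. Sars, the serine enzyme, had a log2 fold change of 0.02 ± 0.06, and Cars one of 0.05 ± 0.06.

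Wars, the tryptophan enzyme, is known as an interferon-gamma inducible gene. It had 117, 125, 167 and 106 CPM after DT, against 119, 132, 106 and 120 CPM after saline, and the groups overlapped. Its log2 fold change was 0.11 ± 0.11 (edgeR adjusted p 0.435), and -0.03 without replicate 3 of DT. In the same libraries 10 of 15 listed interferon-gamma response genes rose, beside 19.9% of all tested genes, with a median log2 fold change of 1.29. Among them Tap1, a peptide transporter of antigen presentation, rose by 1.60 ± 0.17 on the log2 scale. The other 5, Irf1, Irf8, Cxcl10, Ciita and Ido1, were not called. Their log2 fold changes ran from -0.59 ± 0.28 for Ciita to 0.99 ± 1.78 for Ido1. Wars2, the mitochondrial counterpart of Wars, had 28.5, 23.7, 22.0 and 24.9 CPM after DT, against 24.3, 20.7, 23.6 and 23.0 CPM after saline. It was not called, with a log2 fold change of 0.11 ± 0.09.

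Among mitochondrial enzymes, 9 of 16 genes rose at 24 h and 1, Lars2, was lower, beside the same 19.9% and 18.9% of all tested genes. The median log2 fold change was 0.28, and 0.29 without Lars2. Yars2 (Entrez 70120, chromosome 16, 16302965 to 16309640), the tyrosine enzyme, had 40.6, 37.5, 47.4 and 39.4 CPM after DT, against 24.8, 24.2, 20.7 and 24.7 CPM after saline. The groups were far apart, and the log2 fold change of 0.81 ± 0.09 (edgeR adjusted p 1.35e-07) was close to that of Vars. Tars2, the threonine enzyme, had 78.7, 65.4, 72.7 and 65.2 CPM after DT, against 45.9, 53.2, 52.9 and 53.0 CPM after saline, a log2 fold change of 0.46 ± 0.07 (edgeR adjusted p 3.72e-05). Vars2 had 62.5, 59.6, 71.6 and 57.6 CPM after DT, against 47.8, 49.3, 52.6 and 45.9 CPM after saline, a log2 fold change of 0.36 ± 0.07 (edgeR adjusted p 0.000181). Neither gene's groups overlapped.

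The other mitochondrial genes that rose were Sars2 (0.40 ± 0.08), Nars2 (0.36 ± 0.09), Rars2 (0.36 ± 0.08), Fars2 (0.29 ± 0.08), Iars2 (0.26 ± 0.05) and Aars2 (0.24 ± 0.07), all as log2 fold changes. The call of Aars2 was lost without saline replicate 1. Cars2, Ears2, Hars2, Mars2, Pars2 and Wars2 were not called. Ears2, which charges glutamate in mitochondria and takes part in making mitochondrial glutaminyl-tRNA, had 19.3, 18.5, 16.9 and 20.4 CPM after DT, against 18.2, 21.6, 21.9 and 17.3 CPM after saline. Those values overlapped, with a log2 fold change of -0.08 ± 0.09. Mars2 had a log2 fold change of 0.32 ± 0.13 and an edgeR adjusted p of 0.0502, at a mean of only 7.54 CPM. Over all 16 genes the summed mitochondrial level was 913 ± 45.6 CPM after DT and 997 ± 89.7 CPM after saline (SD, n = 4 each), with overlapping groups. Without Lars2, left out after seeing the data, the direction turned and the sum was 582 ± 24.8 CPM after DT and 477 ± 2.46 CPM after saline.

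Markers of other cells were set beside these sums at 24 h, and their part in the result was not tested. Of 12 fibroblast markers 2 rose and 1, Fn1, fell, beside 19.9% and 18.9% of all tested genes, and 11 had a log2 fold change above 0, with a median of 0.50. Their summed levels, of which Fn1 is the largest share, were 8514 to 13720 CPM after DT and 10650 to 12530 CPM after saline. Of 12 macrophage markers 1 rose, with sums of 233 to 596 CPM after DT and 358 to 491 CPM after saline. Of 8 endothelial markers 1 rose, with sums of 294 to 331 CPM after DT and 216 to 315 CPM after saline, and of 11 epithelial markers tested 3 rose and 3 fell. Of 9 mast cell markers tested 1, Kit, rose and 2 fell: Ms4a2, a subunit of the IgE receptor, by 6.49 ± 0.84 and Tpsb2, a tryptase, by 3.18 ± 0.53 on the log2 scale. Both were also lower at 48 and 96 h. The other 6 were not called at 24 h. Over all 9 the median log2 fold change was 0.03, with 5 above 0. The mast cell sums, of which Kit is the largest share, were 56.3 to 130 CPM after DT and 73.7 to 116 CPM after saline at 24 h. In such bulk samples fewer cells of a type and less RNA per cell cannot be told apart.

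Grouped by structure, 6 of 9 class I and 9 of 10 class II cytosolic genes rose at 24 h, beside 19.9% of all tested genes, with median log2 fold changes of 0.22 and 0.38; Eprs, which has a domain of each class, was counted in neither. In the multisynthetase complex 7 of 8 enzyme genes rose, all but Qars, with a median of 0.37. Of its 3 scaffold genes Aimp2 rose by 0.48 ± 0.08 and Eef1e1 by 0.41 ± 0.10 on the log2 scale, while Aimp1 had a log2 fold change of 0.16 ± 0.07 and an edgeR adjusted p of 0.0884.

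Of 12 cytosolic synthetase genes listed as ATF4 targets, 9 rose at 24 h, beside 19.9% of all tested genes, with a median log2 fold change of 0.29. Of the 8 cytosolic genes outside that list, 7 rose, with a median of 0.40. By promoter letters, the 5 genes with TGATGNAA all rose, with log2 fold changes of 0.22 to 0.48, and so did 6 of the 8 matched cytosolic genes without it, whose values ran from -0.10 to 0.50. The medians were 0.38 and 0.37.

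Other listed genes of the ATF4 pathway moved in both directions at 24 h: 11 of 26 rose and 5 fell, beside 19.9% and 18.9% of all tested genes, with a median log2 fold change of 0.18. Atf4 itself had 391 ± 12.4 CPM after DT and 286 ± 20.5 CPM after saline (SD, n = 4 each), a log2 fold change of 0.45 ± 0.08 (edgeR adjusted p 6.82e-05). Psat1, of serine synthesis, rose by 1.23 ± 0.10, and Mthfd2, of mitochondrial one-carbon metabolism, by 0.89 ± 0.13. Pycr1, of proline synthesis, fell by 1.82 ± 0.19 on the log2 scale. Sesn2, a stress-induced inhibitor of mTORC1, fell by 0.50 ± 0.10, and Trib3, a feedback inhibitor of ATF4, fell by 0.49 ± 0.14. Ddit3, which encodes CHOP and whose gene shares 68 exonic bases with Mars1 on the other strand, had a log2 fold change of 0.22 ± 0.11 and was not called.

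Of 11 listed genes that act on tRNA and are not among the 36, 7 rose at 24 h, beside 19.9% of all tested genes, with a median log2 fold change of 0.20. The list holds Tarsl2, itself a threonyl-tRNA synthetase gene, which had a log2 fold change of 0.18 ± 0.10 and was not called. Nsun2, which methylates cytosines in tRNA, rose by 0.69 ± 0.06, Elac2, which trims the 3′ ends of tRNA precursors, by 0.45 ± 0.06, and Xpo5, an exporter of structured RNA, by 0.41 ± 0.06. Of 4 genes of the cytosolic elongation factor 1 complex, Eef1g rose by 0.36 ± 0.09 and Eef1d by 0.26 ± 0.08, while Eef1a1, which carries charged tRNA to the ribosome, had a log2 fold change of -0.17 ± 0.07 and was not called. Of 16 genes of mitochondrial translation 6 rose, with a median of 0.12. They included Mto1, a modifier of mitochondrial tRNA (0.67 ± 0.08), and the elongation factor genes Tsfm (0.50 ± 0.08), Gfm1 (0.50 ± 0.07) and Tufm (0.49 ± 0.18).

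Cytosolic and mitochondrial enzymes of the same amino acid could be paired in 15 combinations, with Fars2 used in a pair with each of Farsa and Farsb. The log2 ratio of their counts was taken within each library. At 24 h the ratio was higher in every DT library than in every saline library in 3 pairs and lower in 2, and it overlapped in 10. At 48 h it was higher in 1 pair, Vars with Vars2, and lower in 1, Yars with Yars2, with or without DT replicate 3, and at 96 h higher in 0 and lower in 3. No share over all genes stands beside these ratios. At 24 h the ratio of Vars to Vars2 averaged 3.22 ± 0.13 after DT and 2.76 ± 0.06 after saline (SD, n = 4 each, log2). For Hars and Hars2 it averaged 1.12 ± 0.26 after DT and 0.70 ± 0.10 after saline. Exons of Hars and Hars2 overlap each other by 195 bases on opposite strands. Use of strand in counting is not given, so reads from there cannot be told apart. The pair of Lars and Lars2 was the third with a higher ratio, at -1.31 ± 0.09 after DT and -2.17 ± 0.29 after saline, and at 96 h it was lower, at -1.66 ± 0.09 after DT and -1.22 ± 0.17 after saline. Wars to Wars2 was also lower at 96 h, at 2.11 ± 0.08 after DT and 2.37 ± 0.17 after saline.

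The ratio was lower after DT for tyrosine and serine. Yars to Yars2 averaged 0.73 ± 0.06 after DT and 1.31 ± 0.12 after saline at 24 h. At 48 h it averaged 0.995 ± 0.06 after DT (0.992 without replicate 3) and 1.40 ± 0.12 after saline, and at 96 h 1.18 ± 0.05 after DT and 1.44 ± 0.05 after saline. The DT libraries lay below the saline libraries at all 3 times. Sars to Sars2 averaged 2.80 ± 0.13 after DT and 3.20 ± 0.17 after saline at 24 h, and overlapped at 48 and 96 h. Summed over all genes of each class, the ratio of cytosolic to mitochondrial CPM was 3.75 ± 0.14 after DT and 2.70 ± 0.32 after saline at 24 h, with separate groups. It was 3.42 ± 0.16 after DT and 3.28 ± 0.28 after saline at 48 h, with overlap, and 3.24 ± 0.04 after DT and 3.71 ± 0.16 after saline at 96 h, where every DT library was below every saline library. Without Lars2 the ratio was 5.89 ± 0.32 after DT and 5.60 ± 0.14 after saline at 24 h, and 5.52 ± 0.06 after DT and 5.77 ± 0.17 after saline at 96 h, with overlapping groups at both times. Across the 15 pairs, which are not independent, the 24 h changes of both members had a Pearson correlation of 0.14.

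**Figure D3:**
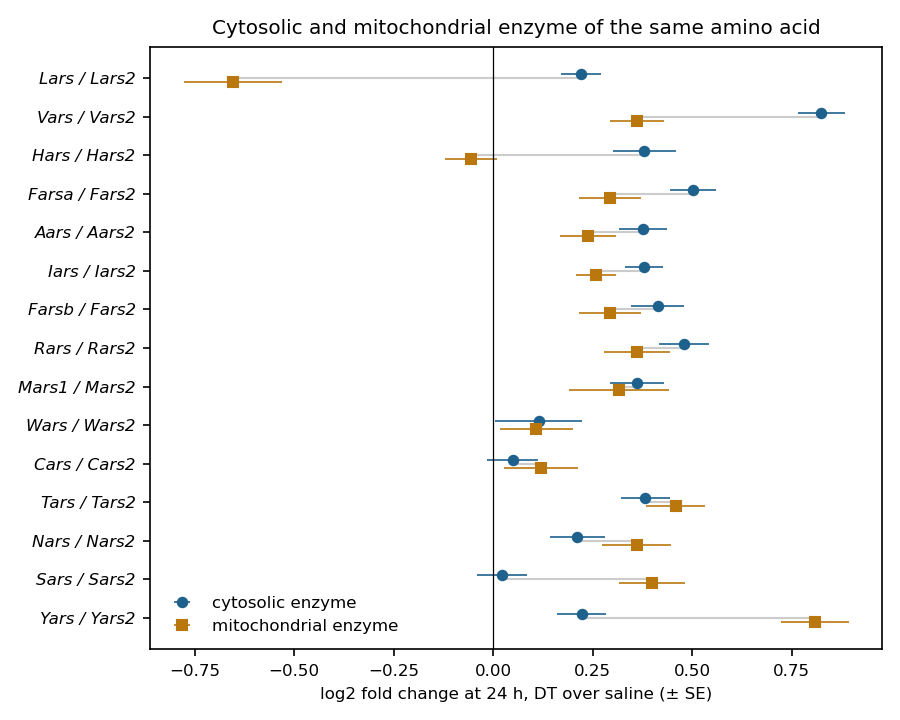
Log2 fold change at 24 h, DT over saline, with SE, of the cytosolic (circle) and mitochondrial (square) enzyme gene of each amino acid, ordered by their difference. The cytosolic change exceeds the mitochondrial one most for leucine, valine and histidine, and is below it most for tyrosine (0.22 against 0.81) and serine (0.02 against 0.40).

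At 48 h fewer genes passed the threshold. Of the 20 cytosolic genes 6 rose, and of the 16 mitochondrial genes 2 rose, beside 4.83% of all tested genes called higher and 6.50% called lower. By edgeR 0 fell in either class, also at an unadjusted p under 0.05, and 0 fell by DESeq2 or limma voom. The median log2 fold changes were 0.09 and 0.10. Without replicate 3 of DT, 9 cytosolic and 4 mitochondrial genes rose, beside 7.72% of 17738 tested genes, with medians of 0.12 and 0.13. All 8 genes called with that library stayed called without it, and Farsa, Farsb, Kars, Rars2 and Tars2 were added.

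Vars had 457, 399, 383 and 455 CPM after DT at 48 h, against 322, 341, 337 and 337 CPM after saline. The groups did not overlap, and the log2 fold change was 0.34 ± 0.06 (edgeR adjusted p 0.000579), or 0.40 ± 0.06 without replicate 3. Gars had 258, 229, 208 and 229 CPM after DT, against 167, 187, 191 and 178 CPM after saline, a log2 fold change of 0.36 ± 0.07, or 0.42 ± 0.06 without replicate 3. Yars2 had 31.8, 28.1, 28.6 and 32.1 CPM after DT, against 22.2, 25.3, 20.8 and 19.6 CPM after saline, a log2 fold change of 0.45 ± 0.08, or 0.49 ± 0.09 without replicate 3. Vars, Gars and Yars2 kept their calls whichever library of that time was left out.

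The calls of Eprs, Rars, Tars, Iars and Fars2 at 48 h did not have that property. Rars had 186, 172, 156 and 172 CPM after DT, against 134, 153, 150 and 155 CPM after saline, a log2 fold change of 0.22 ± 0.06, or 0.27 ± 0.07 without replicate 3 of DT. Tars had 96.3, 94.3, 87.7 and 98.2 CPM after DT, against 78.8, 85.6, 83.5 and 78.5 CPM after saline, a log2 fold change of 0.21 ± 0.06, or 0.25 ± 0.07 without replicate 3. Their groups did not overlap. Eprs and Iars had smaller changes, of 0.17 ± 0.04 and 0.15 ± 0.05, and of 0.17 ± 0.05 and 0.19 ± 0.05 without replicate 3. Fars2, for mitochondrial phenylalanine, had 32.1, 30.0, 24.9 and 27.3 CPM after DT, against 23.7, 24.1, 24.3 and 22.8 CPM after saline, a log2 fold change of 0.27 ± 0.08, or 0.34 ± 0.08 without replicate 3.

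All 5 were lost without saline replicate 1, which left 2 cytosolic and 1 mitochondrial gene called. Eprs, Iars, Rars and Tars were lost without DT replicate 4. Without DT replicate 1 the calls of Rars, Tars and Fars2 were lost, and without DT replicate 2 or saline replicate 4 those of Iars, Tars and Fars2. Iars was also lost without saline replicate 2, with Fars2, and without saline replicate 3, with Eprs. Tars2 had 63.7, 59.9, 52.9 and 63.0 CPM after DT, against 50.2, 51.0, 55.8 and 50.6 CPM after saline at 48 h, and was called without DT replicate 3 but not with all libraries.

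Kars at 48 h had 184, 156, 146 and 157 CPM after DT, against 132, 147, 139 and 142 CPM after saline, with overlapping groups and a log2 fold change of 0.19 ± 0.07 (edgeR adjusted p 0.0827). Without replicate 3 of DT its groups were separate, with 0.25 ± 0.07 and an edgeR adjusted p of 0.0245. Wars had 141, 117, 121 and 114 CPM after DT, against 128, 131, 105 and 110 CPM after saline, overlapping with or without that library (log2 fold change 0.08 ± 0.12 without it). All DT libraries lay above all saline libraries in 8 cytosolic and 3 mitochondrial genes, beside 7.16% of all tested genes. Without replicate 3 of DT they did so in 9 and 5 genes, beside 12.4%.

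At 96 h 1 cytosolic gene was called in edgeR, Cars, which fell, beside 1.01% of all tested genes called higher and 3.02% called lower. The count was 0 for mitochondrial genes and for cytosolic genes called higher. At an unadjusted p under 0.05, 3 mitochondrial and 2 cytosolic genes were higher. The shares above are at adjusted p. No share of all tested genes at an unadjusted p stands beside the unadjusted counts, so nothing is read from them. DESeq2 called 1 gene higher in each class, and limma voom 1 mitochondrial gene. Cars had 56.3, 50.8, 56.1 and 54.9 CPM after DT, against 60.9, 72.1, 64.2 and 60.0 CPM after saline. The groups did not overlap, and the log2 fold change was -0.24 ± 0.06 (edgeR adjusted p 0.0345). The call was lost without any one of the 4 DT libraries and without saline replicate 2 or 3. The median log2 fold changes were 0.03 over cytosolic and 0.10 over mitochondrial genes.

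Several genes at 96 h had separated groups without a call. Iars had 114, 126, 122 and 127 CPM after DT, against 109, 110, 113 and 106 CPM after saline, a log2 fold change of 0.16 ± 0.05 (edgeR adjusted p 0.0529). Mars1, for methionine, had 76.5, 72.3, 71.4 and 74.2 CPM after DT, against 78.3, 84.2, 81.8 and 79.9 CPM after saline, a log2 fold change of -0.14 ± 0.07. Sars had 139, 136, 143 and 144 CPM after DT, against 154, 154, 153 and 148 CPM after saline, a log2 fold change of -0.12 ± 0.06.

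Vars, by contrast, had 347, 358, 364 and 384 CPM after DT at 96 h, against 342, 316, 350 and 325 CPM after saline, with overlap and a log2 fold change of 0.12 ± 0.06. Farsa had 59.3, 63.4, 62.6 and 65.0 CPM after DT, against 59.3, 58.9, 58.6 and 54.6 CPM after saline, a log2 fold change of 0.11 ± 0.06. In cytosolic genes all DT libraries were above all saline libraries in 3 cases and below in 4, and in mitochondrial genes above in 4 cases. For all tested genes those shares were 4.91% and 6.70%. Among the mitochondrial genes Wars2 had 23.8, 24.3, 24.3 and 24.1 CPM after DT, against 22.1, 21.2, 18.9 and 22.2 CPM after saline, and Rars2 had 24.7, 26.4, 28.5 and 30.1 CPM after DT, against 26.5, 22.0, 24.5 and 23.7 CPM after saline. The values of Wars2 were separate and those of Rars2 overlapped, with log2 fold changes of 0.19 ± 0.09 and 0.17 ± 0.08.

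**Figure D4:**
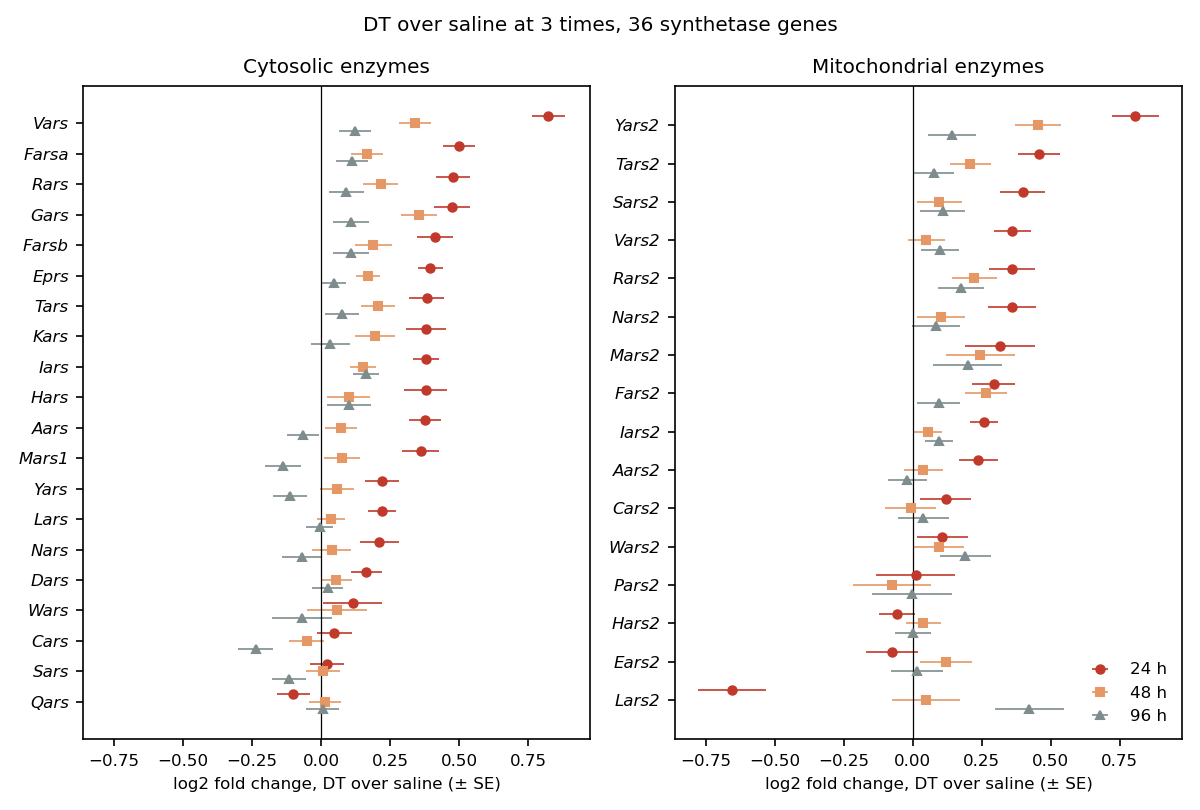
Log2 fold change, DT over saline, with SE for each synthetase gene at 24 h (circles), 48 h (squares) and 96 h (triangles), cytosolic enzymes on the left and mitochondrial ones on the right. The cytosolic median is 0.38 at 24 h, 0.09 at 48 h and 0.03 at 96 h, and Lars2 runs in the other direction, with -0.65, 0.05 and 0.42.

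The DT effect was larger at 24 h than at 48 h in 19 of 20 cytosolic and 13 of 16 mitochondrial genes. Both differences are taken from their own saline libraries. Without replicate 3 of DT at 48 h those counts were 18 and 11. No share over all genes stands beside these counts. The 24 h results were known when the family was taken, so nothing is read from the counts. With all libraries, the median of the 48 h effect minus the 24 h effect was -0.19 over cytosolic and -0.13 over mitochondrial genes. Over all tested genes it was -0.0068. In a joint interaction test in edgeR, the effect differed among times for 9 cytosolic genes (Aars, Eprs, Farsa, Gars, Iars, Mars1, Rars, Vars and Yars) and for Lars2 and Yars2, beside 7.97% of all tested genes. Without replicate 3 of DT at 48 h, Iars and Yars were no longer called, and 7 cytosolic and 2 mitochondrial genes were left, beside 7.94% of all tested genes. Vars had the smallest adjusted p, 4.16e-05, and its effect was smaller by 0.48 ± 0.08 at 48 h and by 0.70 ± 0.08 at 96 h than at 24 h, on the log2 scale. For Eprs the effect at 96 h minus that at 24 h was -0.35 ± 0.06, with an adjusted p of 0.00302 in the joint test. Across single libraries left out, 4 to 14 cytosolic and 2 to 4 mitochondrial genes were called.

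Between 24 and 96 h the DT effect became smaller, or turned lower, in 14 of 20 cytosolic genes, beside 7.82% of all tested genes. It did so in 2 mitochondrial genes, Tars2 and Yars2, and it became higher in Lars2, beside 4.08% of all tested genes. The largest cytosolic differences after Vars were those of Mars1 (-0.50 ± 0.09) and Aars (-0.44 ± 0.08), both with edgeR adjusted p of 0.00141. Between 24 and 48 h 3 cytosolic genes, Aars, Farsa and Vars, had a smaller effect, beside 2.34% of all tested genes, and Lars2 had a higher one, by 0.70 on the log2 scale (edgeR adjusted p 0.0277), beside 0.555%. Without replicate 3 of DT at 48 h, Vars (-0.41, beside 1.31% of all tested genes) and Lars2 (0.73, beside 0.502%) were called.

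Among saline libraries Cars and Lars2 were called in the joint test of 3 times, beside 1.05% of all tested genes. Markers of other cells also differed between saline at 96 h and at 24 h, and their part in these results was not tested. Of 8 endothelial markers 8 were higher at 96 h, with a median log2 difference of 1.64 and sums of 354 to 672 CPM at 96 h and 216 to 315 CPM at 24 h, beside 2.09% of all tested genes. Of 12 macrophage markers 8 were lower at 96 h, with a median of -1.54 and sums of 152 to 248 CPM at 96 h and 358 to 491 CPM at 24 h, beside 1.13% of all tested genes. Of 12 fibroblast markers 2 were called higher at 96 h, beside 2.09% of all tested genes. All 12 had a log2 difference above 0, with a median of 0.87. The fibroblast sums were 10410 to 24680 CPM at 96 h and 10650 to 12530 CPM at 24 h. Cars had 54.1, 51.6, 52.9 and 50.7 CPM at 24 h, 60.9, 62.1, 64.5 and 58.1 CPM at 48 h, and 60.9, 72.1, 64.2 and 60.0 CPM at 96 h. The level at 24 h was below the others, with an edgeR adjusted p of 0.0391 that did not pass without any one of the saline libraries at 24 h, without saline replicate 2 or 3 at 48 h or at 96 h, or without DT replicate 4 at 96 h. Dars, with the next smallest p, had an adjusted p of 0.203, with 115, 111, 103 and 101 CPM at 24 h, 98.1, 106, 99.3 and 91.9 CPM at 48 h and 97.6, 96.4, 96.0 and 88.4 CPM at 96 h.

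Lars2, the mitochondrial leucine enzyme gene (Entrez 102436, chromosome 9, 123366927 to 123462675), did not move like the other synthetases. At 24 h it had 304, 306, 363 and 350 CPM after DT, against 395, 527, 594 and 566 CPM after saline. At 48 h it had 428, 373, 370 and 297 CPM after DT, against 434, 358, 308 and 320 CPM after saline, and at 96 h 327, 330, 364 and 337 CPM after DT, against 278, 272, 248 and 216 CPM after saline. The DT libraries were all below saline at 24 h, as in 16.2% of all tested genes, overlapped with it at 48 h and were all above it at 96 h. The log2 fold changes were -0.65 ± 0.12 (edgeR adjusted p 0.000206), 0.05 ± 0.12 and 0.42 ± 0.12 (adjusted p 0.0551). In saline the level at 96 h minus that at 24 h was -1.04 ± 0.12 on the log2 scale, and the adjusted p over the 3 times was 0.000153.

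Over 24 libraries the level of Lars2 had a Pearson correlation of 0.973 with Gm15564 and of 0.954 with Mir6236, the highest of all tested genes, followed by Tff3, a goblet cell peptide, with 0.784. A stretch of 72 bases of the 3894-base Lars2 transcript matches Gm15564 at 98.6% identity. Gm15564 had 34.4, 29.9, 40.0 and 34.0 CPM after DT at 24 h, against 41.4, 50.3, 59.6 and 59.5 CPM after saline, a log2 fold change of -0.61 ± 0.14, and Mir6236 one of -0.86 ± 0.18. The other 35 synthetase genes had correlations with Gm15564 of -0.43 to 0.55. The authors counted reads aligned uniquely to a gene, and whether reads of these near-identical stretches were split between genes was not tested, so values of Lars2 are uncertain. The correlations are descriptions over libraries that share treatment and time.

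**Figure D5:**
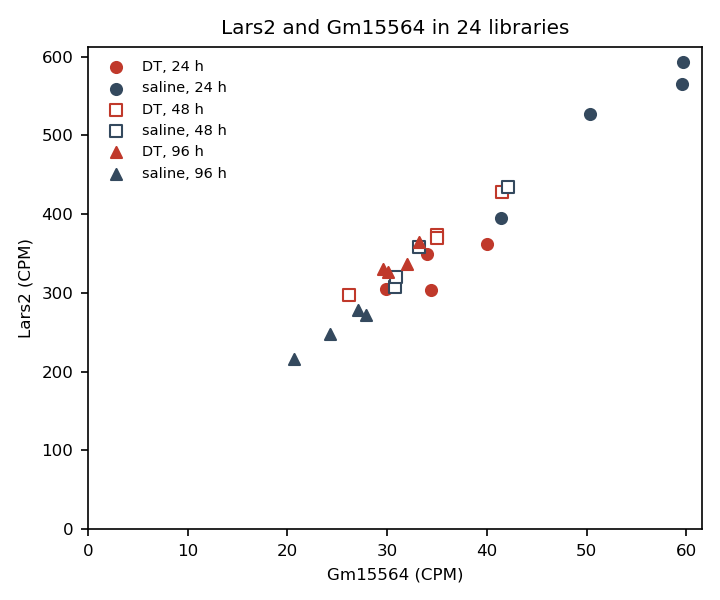
CPM of Lars2 against CPM of Gm15564 in 24 libraries, DT in red and saline in dark, with a symbol for each time. The libraries lie along a line, with a Pearson correlation of 0.973.

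Correlations between synthetase genes were also taken across libraries that share treatment and time, so differences between groups enter them. The median Pearson correlation over 24 libraries was 0.716 among 190 pairs of cytosolic genes, 0.316 among 120 pairs of mitochondrial genes and 0.461 between the classes. The mitochondrial genes had lower levels (median 8.56 against 34.4 nRPKM) and include Lars2, whose reads are uncertain. No pairs of other genes at like levels stand beside these medians, so no difference between the classes is read from them. Cars, with a median of -0.118 to the other cytosolic genes, and Qars, with 0.119, had the lowest. Exons of 13 of the 36 genes overlap exons of another gene in the GENCODE M21 annotation, and use of strand in counting is not given, so such reads cannot be told apart. The longest overlaps are 2034 bases between Iars2 and Rab3gap2 on opposite strands and 1326 bases between Aars and Exosc6 on the same strand.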

How the data were processed

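RNA was isolated from sorted cells with the RNeasy Micro kit, per the labels' protocols. GSNAP and GRCm38 are named in the submitters' processing notes, without version; annotation, counting settings and use of strand were not given in the sources used here. The authors deposited for each of 24 libraries a count of reads aligned uniquely to a gene and an nRPKM, which per the file headers is RPKM after division by size factors. Of 36528 gene rows 31049 (85.0%) matched a RefSeq table of GRCm38.p6, which gave symbols and coordinates; unmatched rows held 1.29% to 1.52% of counts and stayed in library sizes.

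Counts were tested in edgeR 4.0.16 (R 4.3.3) by the quasi-likelihood test with TMM scaling, filtering by expression within groups and robust dispersion, in 1 fit of 24 libraries with 18 residual degrees of freedom. Adjusted p-values are two-sided, by Benjamini-Hochberg over 17468 genes, with a threshold of 0.05. SE is the size of the log2 fold change over the square root of F, and CPM use TMM library sizes. In the nRPKM, the authors' size factors were recovered to a relative deviation of at most 6e-15 over 11928 genes with counts of at least 50. Near-identical stretches were sought with a minimum of 95% identity over 50 bases between GENCODE M21 transcripts. Between replicates, chi-square per degree of freedom was at least 4.24, so no 2 were copies. The fit was tested on simulated data.

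Values in every library are given, per time, for the 6 cytosolic and 3 mitochondrial genes with the smallest p, the 3 with the smallest p among times and among saline times, and Kars, Gars, Wars and Wars2; of other lists up to 4 genes per time, of which a part is printed. Other genes named were chosen after their values were seen. The genes, lists and tests were chosen with earlier results of these data known. Alternatives were median-of-ratios, upper quartile and the authors' scaling, no filter or 1 CPM in 4 libraries, DESeq2 1.42.0, limma 3.58.1 voom, a replicate block, only the libraries of a time, and each library left out; Lars2 left out of its list was added after seeing the data.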

Additional observations from a re-analysis of the deposited data

Results flagged for a closer look

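In 15 of 216 groups of 4 libraries (6.9%) a library lay far from the others of its group by Dixon's test, which chance does in about 1 in 20 groups. After DT at 24 h these were Hars in replicate 3 (110 CPM, others 80.9 to 85.7) and Mars2 in replicate 4 (7.43 CPM, others 9.31 to 9.60). After DT at 48 h they were Hars in replicate 1 (85.7 CPM, others 70.8 to 72.3), Nars in replicate 3 (195 CPM, others 201 to 202) and Qars in replicate 1 (246 CPM, others 206 to 211). After DT at 96 h they were Qars in replicate 2 (201 CPM, others 211 to 213), Mars2 in replicate 1 (7.12 CPM, others 8.05 to 8.15) and Pars2 in replicate 3 (7.28 CPM, others 4.91 to 5.30).

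After saline at 24 h replicate 1 was apart for Eprs (237 CPM, others 230 to 231), Sars (169 CPM, others 153 to 154) and Tars2 (45.9 CPM, others 52.9 to 53.2), replicate 2 for Yars (63.5 CPM, others 56.4 to 57.2) and replicate 3 for Yars2 (20.7 CPM, others 24.1 to 24.8). At 48 h it was replicate 3 for Tars2 (55.8 CPM, others 50.2 to 51.0), and at 96 h replicate 4 for Farsa (54.6 CPM, others 58.6 to 59.3).

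The DT effect differed among the 3 times, by edgeR's joint interaction test, for 11 genes. The adjusted p was 4.16e-05 for Vars, 0.00128 for Lars2, 0.00302 for Eprs, 0.00339 for Yars2, 0.00415 for Aars, 0.00478 for Mars1, 0.00595 for Farsa, 0.0186 for Rars, 0.0335 for Gars, 0.0465 for Yars and 0.0469 for Iars.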

How the results depend on the processing

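At 24 h the counts and medians of both classes kept their direction under every alternative run, within 1.5 times, except that without Lars2, left out after seeing the data, the count of mitochondrial genes called lower was 0. Leaving out single libraries at 24 h gave 14 to 16 cytosolic genes higher (median 0.31 to 0.39), 0 to 0 lower, 9 to 10 mitochondrial genes higher and 1 to 1 lower (median 0.23 to 0.28), and 5961 to 6729 of all genes called. At 48 h it gave 2 to 9 cytosolic genes higher (median 0.04 to 0.14), 1 to 4 mitochondrial genes higher (median 0.08 to 0.13), 0 to 0 lower in both classes, and 1154 to 2741 of all genes. At 96 h it gave 0 to 1 cytosolic genes higher, 0 to 1 lower (median 0.03 to 0.05), 0 to 0 mitochondrial genes higher and 0 to 0 lower (median 0.085 to 0.13), and 359 to 680 of all genes. Among times it gave 4 to 14 cytosolic and 2 to 4 mitochondrial genes for the DT effect, and 0 to 1 and 1 to 1 for saline.

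At 96 h, 1 cytosolic gene (Iars) was called higher with median-of-ratios scaling, upper quartile scaling, the authors' size factors, a filter of 1 CPM in 4 libraries or DESeq2, and 1 mitochondrial gene (Lars2) with these, with limma voom, with the replicate block and in a fit of that time alone. The count of cytosolic genes called lower was 0 with the authors' size factors, without a filter, with the block and in a fit of that time alone, and the count among saline times was 0 with the authors' size factors, without a filter and with limma voom. Fitted on the libraries of 48 h alone, 2 cytosolic and 1 mitochondrial genes were called, and 945 of all genes. The cause was not tested; such a fit has fewer samples.

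Deviations of same-numbered DT and saline libraries had correlations of -0.356 to 0.13. The labels do not say whether the numbers pair libraries, and weak correlations cannot exclude it. With the replicate block 14 cytosolic and 9 mitochondrial genes were called higher at 24 h, 2 and 1 at 48 h, and 0 and 1 at 96 h, with 0 cytosolic genes lower at 96 h. Of all genes 5625, 933 and 301 were called, and the DT effect differed among times for 2 cytosolic and 1 mitochondrial genes.

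The direction of single genes was followed only for those whose values are given by the rule above, not for every synthetase gene. Among these it turned for 3 genes, with no call. Wars had a log2 fold change of -0.0297 at 24 h without DT replicate 3 (up to 0.1949 without another library) and of -0.0134 at 48 h without DT replicate 1 (up to 0.1088). Lars2 had -0.0338 at 48 h without DT replicate 1 and -0.015 without saline replicate 3 (up to 0.1627), and Dars -0.0067 at 96 h without saline replicate 4 (up to 0.0482). Counts as low as 65 per library limit the precision of the lowest genes, Pars2 and Mars2.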
